A study of Caenorhabditis elegans with 2 samples.

Results

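Molecular chaperones of the heat shock and DnaJ families were examined for binding of the protein T26A8.4 in Caenorhabditis elegans larvae. The members were the protein-coding genes of the Ensembl WBcel235 annotation whose symbol begins with hsp- or dnj-. There were 51 of them among 19973 protein-coding genes, 22 with an hsp- and 29 with a dnj- symbol. Ensembl lists the symbols hsp-16.1 and hsp-16.48 for 2 genes each, and the RefSeq names hsp-16.11 and hsp-16.49 were used for the second gene of each.

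Peak lists from chromatin immunoprecipitation sequencing (ChIP-seq) came from whole L4 larvae, aged 48 hours and synchronised by bleaching and L1 starvation. The only strain was OP692, with genotype wgIs692(T26A8.4::TY1 EGFP 3xFLAG, unc-119(+)) in unc-119(tm4063). It carries the tagged transgene together with unc-119(+) in an unc-119 mutant background, and the result rests on 1 transgenic line. Sonicated chromatin was precipitated with an antibody against GFP in 2 biological replicates, which formed 1 group. The labels name no stress treatment, no group served as a control, and no difference between conditions could be tested. Chromatin came from whole animals, so binding in few cells and weak binding in many cells cannot be told apart.

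Heat shock proteins and their J-domain partners keep other proteins folded. Hsp70 proteins bind exposed stretches of a client and release them through an ATP cycle, which J-domain (DnaJ) proteins start and nucleotide exchange factors reset. Hsp90 and the ring-shaped chaperonins act on later folding states, and small heat shock proteins hold unfolding clients without ATP. Some of these genes are transcribed at all times, and others are nearly silent until heat or another stress activates the transcription factor HSF-1. HSF-1 reads the heat shock element, an inverted repeat of nGAAn units. Separate responses serve the endoplasmic reticulum, through XBP-1 and ATF-6, and the mitochondrion, through ATFS-1.

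Members were put in classes from general knowledge of worm heat shock genes, with no expression measured here. The stress-induced class held 9 genes: the 6 hsp-16 genes, hsp-12.6, hsp-70 and hsp-4. The class expressed without stress held 27 genes, of which 7 serve an organelle and are raised further by its stress. The remaining 15 members were given no class. The promoter window covered the 1000 bp before the annotated start and the 200 bp after it. A gene counted as bound if its window held a peak summit. The combined set is the authors' thresholded list over both replicates, with 2993 summits and a median peak signal of 123. Peak signal is the authors' score without a stated unit, so values are set against each other only within a list.

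Sequences under some of the promoter peaks are shown first, chosen because they hold elements that are marked below. Windows reaching 100 bp either side of the summit are given, or less where an annotated exon begins, read 5′ to 3′ on the strand of the named gene. They come from the RefSeq WBcel235 sequence. Capitals mark the heat shock element in its form of 2 or more alternating units (GAANNTTC or TTCNNGAA), the GAGA repeat (GAGAGAGA), the core of the unfolded protein response element (TGACGTG), the TATA box (TATAAA), the E-box (CACGTG) and the DAF-16 element (GTAAACA). Both strands were searched, and overlapping matches run together. The windows are chrIII:1619034-1619234 for hsp-60 (plus strand), chrIII:8447048-8447248 for hsp-110 (minus), chrII:11545407-11545607 for dnj-13 (plus), chrIV:17278471-17278671 for hsp-1 (plus) and chrX:6092125-6092271 for hsp-3 (minus).
hsp-60: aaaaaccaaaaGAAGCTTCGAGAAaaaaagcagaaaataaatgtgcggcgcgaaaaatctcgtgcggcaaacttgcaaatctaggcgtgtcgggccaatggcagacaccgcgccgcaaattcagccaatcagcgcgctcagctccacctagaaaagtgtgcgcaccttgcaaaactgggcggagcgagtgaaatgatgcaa
hsp-110: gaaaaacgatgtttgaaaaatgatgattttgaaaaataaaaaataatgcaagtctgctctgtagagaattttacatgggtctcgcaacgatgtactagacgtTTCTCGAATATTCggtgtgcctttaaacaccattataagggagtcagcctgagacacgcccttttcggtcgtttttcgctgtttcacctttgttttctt
dnj-13: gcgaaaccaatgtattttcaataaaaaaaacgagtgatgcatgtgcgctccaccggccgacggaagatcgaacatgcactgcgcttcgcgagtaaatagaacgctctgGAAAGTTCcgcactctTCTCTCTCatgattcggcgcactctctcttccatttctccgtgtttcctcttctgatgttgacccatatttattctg
hsp-1: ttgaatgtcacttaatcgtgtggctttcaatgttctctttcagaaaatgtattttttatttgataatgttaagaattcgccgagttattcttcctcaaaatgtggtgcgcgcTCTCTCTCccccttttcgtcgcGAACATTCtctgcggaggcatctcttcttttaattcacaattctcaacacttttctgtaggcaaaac
hsp-3: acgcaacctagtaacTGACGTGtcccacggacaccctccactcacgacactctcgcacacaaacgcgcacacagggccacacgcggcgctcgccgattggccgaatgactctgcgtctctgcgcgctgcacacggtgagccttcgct
The hsp-60 and hsp-110 windows each hold a run of 3 alternating units, the form that a trimer of HSF-1 reads. The dnj-13 and hsp-1 windows hold a shorter form of 2 units beside a GAGA repeat, and hsp-3 holds the unfolded protein response core. Among the promoter summit windows not shown, dnj-12 holds a run of 3 units and dnj-19 the form of 2 units. The stronger dnj-29 summit has the unfolded protein response core. The hsp-6 and dnj-14 windows hold none of the marked motifs, and dnj-9 and the weaker dnj-29 summit have only the TATA box.

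Of the 51 members, 11 (21.6%) had a combined-set summit in their promoter window, against 7.06% of all protein-coding genes. The bound members were hsp-60, dnj-13, dnj-19, hsp-110, hsp-3, dnj-9, hsp-1, dnj-14, hsp-6, dnj-12 and dnj-29. None of the 9 stress-induced members was among them, against 10 of the 27 members expressed without stress (37%). The one bound member in no class was dnj-9, of 15 (6.67%). By symbol, 5 of 22 hsp- genes and 6 of 29 dnj- genes were bound. All 11 peaks overlapped a thresholded peak in both replicates, as did those of 759 of the 1410 bound genes in the whole annotation (53.8%). The median signal was 418 over the 11 members and 146 over all bound genes, and 7 of the 11 (63.6%) had a summit among the strongest 10% of the combined set, against 232 of all 1410 bound genes. The median summit lay 249 bp upstream of the start in members and 252 bp upstream in all bound genes. No test was applied to these shares, since neighbouring genes share peaks and there was no contrast.

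**Figure D1:**
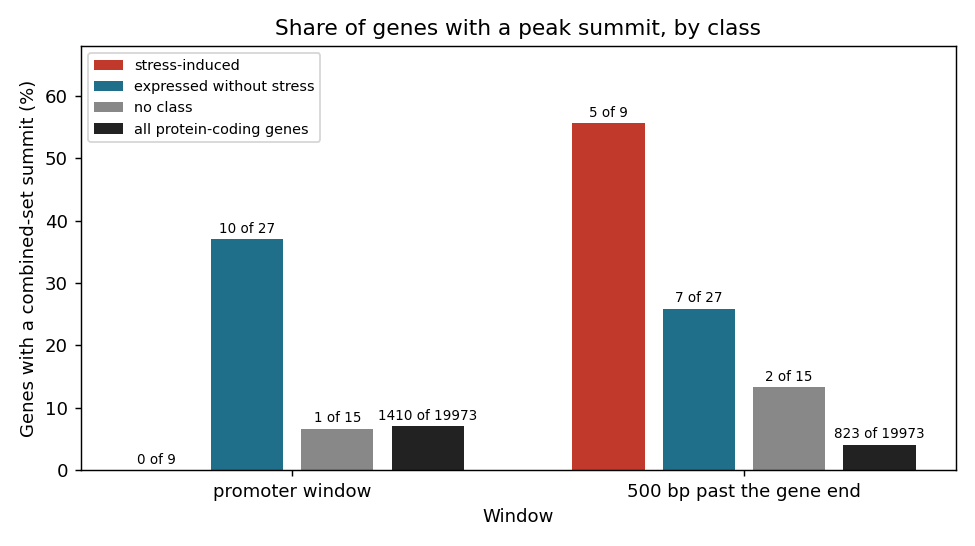
Share of genes (y axis, percent) with a combined-set summit in the promoter window or within 500 bp past the annotated gene end (x axis), for the 3 classes of members and all protein-coding genes. Counts stand above the bars: in promoters 0 of 9 stress-induced members and 10 of 27 members expressed without stress had a summit, while past the gene end the counts were 5 of 9 and 7 of 27, and 2 of 9 and 7 of 27 in replicate 1 alone.

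The mitochondrial chaperones included the strongest promoter peak among the 51 members. The gene hsp-60 encodes the mitochondrial chaperonin. Its summit had a signal of 793, rank 42 of 2993, with 422 in replicate 1 and 378 in replicate 2. It lay 608 bp upstream of hsp-60 and 205 bp upstream of Y22D7AL.10, which RefSeq describes as the mitochondrial 10 kDa heat shock protein. The co-chaperonin and the chaperonin thus share this divergent promoter, and the summit is nearer to the co-chaperonin. The gene hsp-6 encodes mitochondrial Hsp70. Its summit, at −404 bp, had a signal of 157, with 75.4 in replicate 1 and 84 in replicate 2, and lay 196 bp upstream of C37H5.5. The other 4 members placed in the mitochondrion, hsp-75 (the TRAP1-type Hsp90), dnj-10, dnj-15 and dnj-21, had no combined-set summit in the promoter. Their highest ranked-list signals did not pass 22.5 in either replicate.

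Cytosolic Hsp70 and its partners were bound at several levels of the cycle. The gene hsp-1 encodes the constitutive Hsp70, and its summit at −388 bp had a signal of 307, with 188 in replicate 1 and 147 in replicate 2. The gene hsp-110 encodes an Hsp70-related nucleotide exchange factor. Its summit, 239 bp upstream, had a signal of 470, with 202 and 262 in replicates 1 and 2. That summit also lay 205 bp upstream of rpn-3, a subunit of the proteasome's regulatory particle. All 3 canonical cytosolic J-domain genes, dnj-12, dnj-13 and dnj-19, were bound. For dnj-13 the signal was 586 at −194 bp, with 319 in replicate 1 and 280 in replicate 2. The dnj-13 summit lies inside dhgd-1 and in the promoter window of F54D5.9. For dnj-19 it was 478 at −389 bp, with 225 and 253 in replicates 1 and 2. The dnj-19 summit was only 7 bp upstream of nhr-47, a nuclear hormone receptor gene, and dnj-19 itself was the more distant start. For dnj-12 the signal was 154 at −44 bp, with 70.7 in replicate 1 and 94.9 in replicate 2, and mtx-1 (metaxin) lay on its other side. The gene dnj-14, related to the synaptic vesicle chaperone known in vertebrates as cysteine string protein, had a signal of 220 at −347 bp, with 115 in replicate 1 and 113 in replicate 2, beside glit-1. The gene dnj-9, which has no class, had a signal of 418 at −249 bp, with 226 in replicate 1 and 199 in replicate 2. No second promoter shared this summit, but it also lay within 500 bp past the end of T23B7.3.

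Hsp90 differed from the bound members above. The gene hsp-90 (also known as daf-21) had no summit in its promoter window. It had a strong one 847 bp into the gene, with a signal of 582, rank 82, and 296 and 280 in replicates 1 and 2. This summit lay 280 bp upstream of C47E8.4 and counted for hsp-90 as well when the start of any annotated transcript was used. Under that rule dnj-20 and dnj-24 also counted as bound. In its promoter window the highest ranked-list signals were 13.1 in replicate 1 and 10.5 in replicate 2.

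In the endoplasmic reticulum, the 2 BiP genes differed. Both encode the resident Hsp70. The gene hsp-3, expressed without stress, had a summit 47 bp upstream of its start with a signal of 425, and 188 and 225 in replicates 1 and 2. The gene hsp-4, which the unfolded protein response switches on, had none, and its highest ranked-list signals were 28.8 in replicate 1 and 24.1 in replicate 2. The gene dnj-29, related to the translocon partner Sec63 of yeast and mammals, had a stronger summit of 147 at −177 bp and a weaker one of 29.8 at −376 bp, with 72.7 and 70.6 in the replicates at the same interval. It shared both with ndua-2 and fld-1. The reticulum J-domain genes dnj-7, dnj-20 and dnj-27 had no combined-set summit in the window of the annotated gene start. With the start of any annotated transcript dnj-20 counted as bound. Inside dnj-20 lay a summit of 102, thresholded in both replicates.

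Of the 11 bound members, 8 (72.7%) shared a promoter summit with another protein-coding gene, against 42.2% of all bound genes. When each summit was given only to the nearest start, 6 members remained: dnj-12, dnj-29, dnj-9, dnj-13, hsp-1 and hsp-3. For hsp-60, hsp-110, hsp-6, dnj-19 and dnj-14 the neighbour's start was nearer, so which gene the peak belongs to cannot be told apart.

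The stress-induced class held small heat shock proteins for the most part. No small heat shock protein gene, of 13 in all classes, had a combined-set summit in its promoter, against 7.06% of all genes, a share at which few of 13 genes would be bound. Replicate 1 alone called hsp-16.2 and hsp-16.41, and the conservative set called hsp-16.11. The 6 hsp-16 genes are arranged as divergent pairs, and 4 of them form an inverted duplication. On chromosome V, hsp-16.1 and hsp-16.48 span 9087293 to 9088617, and hsp-16.49 and hsp-16.11 span 9089280 to 9090604. These copies of 1325 bp each were 100% identical over 1325 aligned positions, with 662 bp between them. Of the 50-base words in their promoter windows, 3.56% for hsp-16.1, 6.86% for hsp-16.11 and 0 for hsp-16.48 and hsp-16.49 occur once in the genome. Over 90% of such words were unique in 45 of the 51 windows. The sources used here do not say how reads with several positions were treated, so for these 4 genes a missing peak cannot be told apart from missing reads. That leaves 5 stress-induced members outside the duplication, and 0 of these 5 were bound in the combined set, too few genes to set against 7.06% of all genes, while replicate 1 alone called 2 of the 5.

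**Figure D2:**
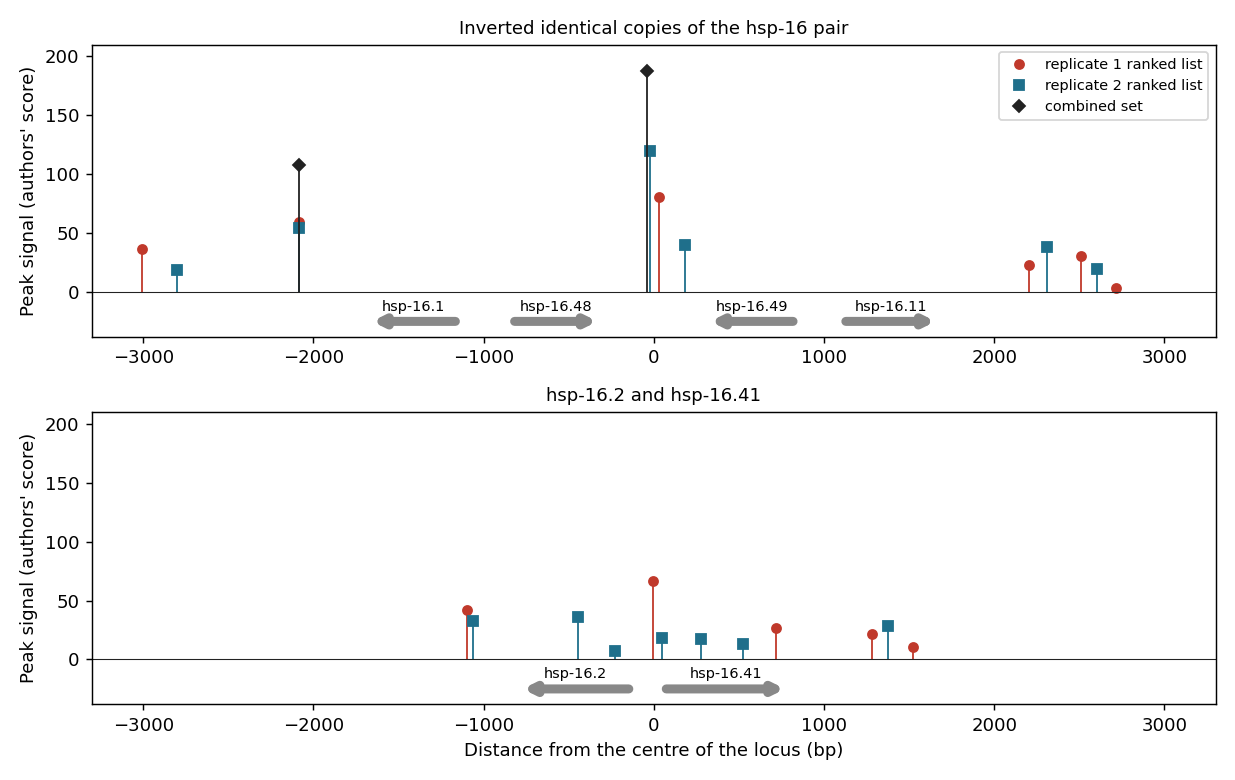
Peak signal (y axis, authors' score) against distance from the centre of the locus (x axis, bp) for the inverted hsp-16 copies and for the hsp-16.2 and hsp-16.41 pair, with genes as arrows in their direction of transcription. Signals are on each list's own scale. No ranked peak of either replicate has its summit within the identical copies, and the strongest, 188 in the combined set, lies in the sequence between them.

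Around the duplication, peaks lay between and beside the copies and not in them. The spacer held a combined-set summit with a signal of 188, with 80.4 in replicate 1 and 120 in replicate 2. It was thresholded in replicate 2 and not in replicate 1. In the 100 bp either side of it, 100% of the 50-base words were unique. The conservative set had a further spacer summit of 91.6, which counted as a hsp-16.11 promoter summit at −966 bp and was the only stress-induced call in that set. Outside the copies, 426 bp past the end of hsp-16.1, a summit of 108 lay near the snRNA gene T27E4.11.

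The pair hsp-16.2 and hsp-16.41 is not duplicated, and all its 50-base words were unique. A summit in their shared promoter had a signal of 66.4 in replicate 1, where it was thresholded, and the ranked summit in the same sequence in replicate 2 had 18.6. A replicate 2 summit of 35.7 inside hsp-16.2 was the highest in the hsp-16.41 window. It was not in the combined set, whose nearest summit lay over 62 kb away (63846 bp from hsp-16.2 and 62928 bp from hsp-16.41). The summit in this promoter was therefore thresholded in 1 of the 2 replicates. The sequences between the divergent starts are given on the plus strand with capitals as above, at chrV:1804958-1805177 and chrV:9087783-9088082, to be set beside that of the bound genes F44E5.4 and F44E5.5 at chrII:11759332-11759631. The first is whole, and of the others 300 bp are shown, of 348 bp for hsp-16.1 and hsp-16.48 and of 350 bp for F44E5.4 and F44E5.5.
hsp-16.2 and hsp-16.41: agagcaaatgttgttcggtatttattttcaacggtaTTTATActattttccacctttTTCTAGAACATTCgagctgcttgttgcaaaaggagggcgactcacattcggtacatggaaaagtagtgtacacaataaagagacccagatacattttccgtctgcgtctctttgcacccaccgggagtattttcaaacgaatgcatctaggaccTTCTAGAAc
hsp-16.1 and hsp-16.48: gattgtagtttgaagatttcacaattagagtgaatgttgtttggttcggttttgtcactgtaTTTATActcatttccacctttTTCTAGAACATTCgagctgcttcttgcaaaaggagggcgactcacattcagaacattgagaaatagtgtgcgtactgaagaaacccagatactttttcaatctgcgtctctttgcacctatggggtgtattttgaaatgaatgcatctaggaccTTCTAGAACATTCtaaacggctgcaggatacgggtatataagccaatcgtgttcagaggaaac
F44E5.4 and F44E5.5: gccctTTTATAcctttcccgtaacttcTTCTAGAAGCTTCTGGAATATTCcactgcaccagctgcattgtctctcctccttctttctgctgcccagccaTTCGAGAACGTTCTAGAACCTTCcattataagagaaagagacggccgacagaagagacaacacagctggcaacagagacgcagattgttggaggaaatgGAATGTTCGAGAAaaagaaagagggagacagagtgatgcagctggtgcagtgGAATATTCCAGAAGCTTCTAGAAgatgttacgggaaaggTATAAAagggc
All hold runs of 3 or more heat shock units and a TATA box. Between the annotated starts, matches to the 3-unit element numbered 1 for hsp-16.2 and hsp-16.41, 2 for hsp-16.1 and hsp-16.48 and 10 for F44E5.4 and F44E5.5, where overlapping matches were counted. The whole promoter windows of hsp-16.2 and hsp-16.41, which reach past the annotated starts, held 2 matches each.

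F44E5.4 and F44E5.5 encode heat-inducible Hsp70 proteins, and their symbols keep them out of the member list. Their shared promoter on chromosome II had a summit with a signal of 1072, rank 22 in the combined set, with 608 in replicate 1 and 479 in replicate 2. The summit lay 171 bp upstream of F44E5.4 and 180 bp upstream of F44E5.5. Its signal was above the promoter peak of every hsp- and dnj- member. The class shares depend on whether these 2 genes are counted. With them added to the stress-induced class, the difference between that share and the share of members expressed without stress was −18.9 percentage points, in place of −37. Of the 50-base words in the window of each, 26.1% were unique, and within 100 bp of the summit 100% were.

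The other stress-induced members had weak ranked-list summits or none. The heat-inducible hsp-70 had 30.7 in replicate 1 and 40.3 in replicate 2. No ranked summit of either replicate lay in the window of hsp-12.6, a small heat shock protein gene. In the ranked lists, 4 of 9 stress-induced members had a promoter summit in replicate 1 and 5 of 9 in replicate 2, against 22 and 21 of the 27 members expressed without stress. Outside the inverted hsp-16 copies, hsp-16.2, hsp-16.41, hsp-4 and hsp-70 had one in both replicates, and only hsp-12.6 had none. Of the copies, hsp-16.11 had one in replicate 2 alone and the others had none. For the copies a missing peak cannot be told apart from missing reads. Over all members the counts were 39 (76.5%) in replicate 1, against 48.4% of all genes, and 38 (74.5%) in replicate 2, against 45.3%.

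**Figure D3:**
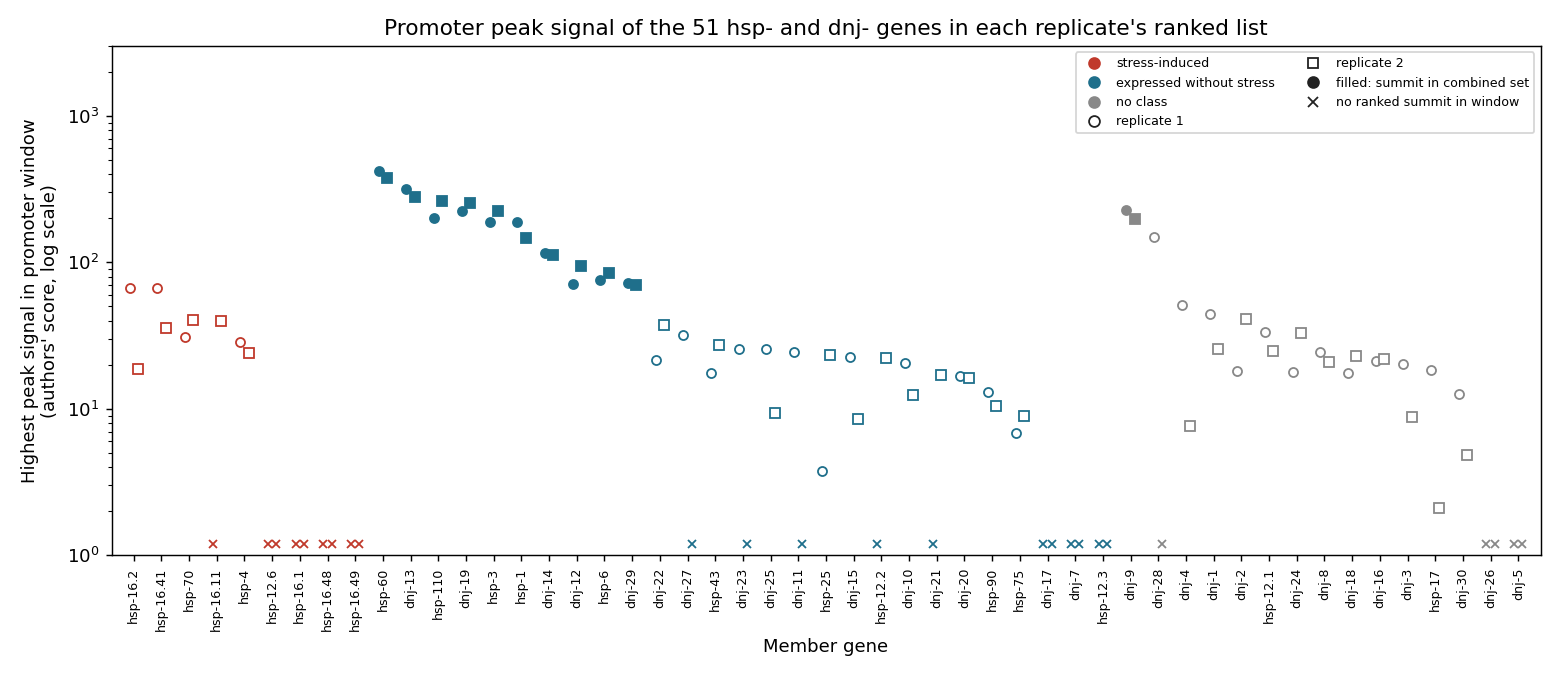
Highest ranked-list peak signal in the promoter window (y axis, authors' score, log scale) of each of the 51 members (x axis) in replicates 1 and 2, by class. Filled symbols mark members with a combined-set summit, and crosses mark windows with no ranked summit. The 10 filled members expressed without stress range between 70.6 and 422, and no stress-induced member passes 66.4.

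The ranked lists gave a value in both replicates for 35 of the 51 members. Across these, Spearman's rho between the replicates' signals was 0.74, and it was 0.66 across 7448 genes of the whole annotation, as a description over genes that share libraries. The unbound members with the highest rank in both replicates, outside the stress-induced class, were dnj-1, hsp-12.1, dnj-22, dnj-8 and dnj-16. Their signals ran between 21.3 and 44.1 in replicate 1 and between 21 and 37.6 in replicate 2, below the lowest bound member in either replicate. Thresholding each replicate alone gave 14 members in replicate 1 (27.5%, against 4.84% of genes) and 11 in replicate 2 (21.6%, against 5.5%). The conservative set gave 12 (23.5%, against 6.63%). The 3 members called in replicate 1 and not in the combined set were hsp-16.2, hsp-16.41 and dnj-28, which had a signal of 150 there and no ranked summit in replicate 2.

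Peaks also lay just past the ends of members, and the window for this count was chosen after the values were seen. Within 500 bp past the annotated gene end, 14 of 51 members (27.5%) had a combined-set summit, against 4.12% of all protein-coding genes. The conservative set gave 14 members, against 3.98%, replicate 1 alone gave 11, against 2.58%, and replicate 2 alone gave 11, against 3.05%. Here 5 of 9 stress-induced members counted, against 7 of 27 members expressed without stress and 2 of 15 in no class. This order depended on the list: in replicate 1 alone the stress-induced share was the lower one, at 2 of 9 (22.2%), against 7 of 27 (25.9%), and in replicate 2 alone it was the higher one, at 3 of 9 (33.3%), against 5 of 27 (18.5%). The median distance past the end was 202 bp in the 14 members and 241 bp in all 823 genes with such a summit. Over all genes, the bins from 100 to 400 bp past the end were the fullest, with 1.37%, 1.22% and 1.01% of genes per 100 bp, against 0.416% in the first 100 bp and 0.2% in the last 100 bp of the gene.

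**Figure D4:**
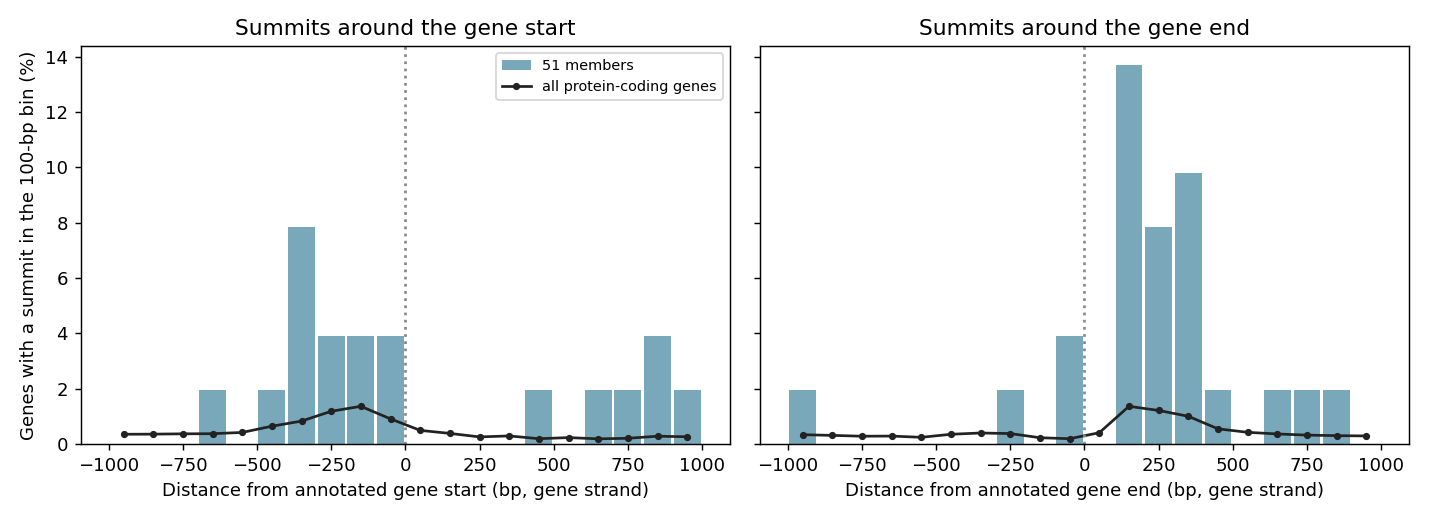
Percent of genes with a combined-set summit (y axis) in bins of 100 bp around the annotated gene start and the annotated gene end (x axes, bp along the gene's strand), for the 51 members as bars and 19973 protein-coding genes as a line. Members reach 7.84% between 400 and 300 bp before the start and 13.7% between 100 and 200 bp past the end, and both curves of all genes peak at 1.37%.

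Among the stress-induced members, hsp-70 had an end summit of 199 at 135 bp, with 82.6 in replicate 1 and 115 in replicate 2, thresholded in both. It lay in uggt-2 and within 200 bp of a pair of tRNA genes. For hsp-4 the end summit was 141 at 211 bp, with 68 in replicate 1, where it was thresholded, and 60 in replicate 2, where it was not. The spacer summit of 188 counted for both hsp-16.48 (289 bp) and hsp-16.49 (374 bp), and the summit of 108 for hsp-16.1 (426 bp). So 5 calls rested on 4 summits, and 2 of the 5 members outside the duplication counted.

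Among the members expressed without stress, the end summits belonged to major chaperone genes. They were hsp-110 (254 at 136 bp), hsp-1 (251 at 134 bp), dnj-13 (219 at 154 bp), hsp-90 (193 at 120 bp), hsp-6 (139 at 264 bp), dnj-20 (108 at 240 bp) and hsp-3. The hsp-3 summit lay 179 bp past the end and ranked 641, with 99.1 in replicate 1 and 101 in replicate 2. It was thresholded in replicate 1 and not in replicate 2. The end summit of dnj-20 was likewise thresholded only in replicate 1, and that of hsp-6 only in replicate 2. The members in no class were dnj-9 (162 at 347 bp) and dnj-5 (152 at 193 bp), the second near a tRNA gene. For hsp-110 the replicates gave 83.8 and 178, and for hsp-1 they gave 102 and 162, thresholded in both. Of the 14 members, 5 had an end summit that also lay in another gene's promoter window (hsp-90, hsp-6, dnj-13, dnj-20 and hsp-110), and 10 members remained when such summits were left out. Of the 16 distinct end summits, 3 lay within 200 bp of a tRNA or snRNA gene.

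Promoter and end were often marked on the same gene. Both windows held a summit in 6 of 51 members (11.8%), namely hsp-110, hsp-1, dnj-13, hsp-3, hsp-6 and dnj-9, against 1.02% of all genes. Of the 11 members bound at the promoter, 6 (54.5%) also had an end summit, against 14.5% of the 1410 promoter-bound genes. Of the 40 members not bound at the promoter, 8 (20%) had one, against 3.33%. In all, 21 of 51 members had a summit in the promoter, the body or the 500 bp past the end (41.2%), against 13.1% of all protein-coding genes. The strongest body summits were those of hsp-90, given above, and hsp-12.3, a small heat shock protein gene, where a summit of 350 lay 31 bp before the gene end and near the snRNA gene F38E11.11.

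The windows past hsp-4 (chrII:7349801-7350001, minus strand) and past hsp-16.48 (chrV:9088806-9089006, plus strand) are examples from the end summits of stress-induced genes, with capitals as above.
hsp-4 end: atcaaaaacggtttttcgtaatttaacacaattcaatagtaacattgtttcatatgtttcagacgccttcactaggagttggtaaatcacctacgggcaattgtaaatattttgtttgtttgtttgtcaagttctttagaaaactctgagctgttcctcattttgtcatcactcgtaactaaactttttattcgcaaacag
hsp-16.48 end: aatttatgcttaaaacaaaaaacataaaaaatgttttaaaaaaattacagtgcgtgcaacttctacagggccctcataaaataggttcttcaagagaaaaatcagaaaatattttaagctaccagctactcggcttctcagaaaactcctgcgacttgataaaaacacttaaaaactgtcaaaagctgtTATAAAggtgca
Neither holds a heat shock unit pair. The end window of hsp-70, not shown, holds 1 match to the form of 2 units and 1 TATA box. Over the 16 distinct end summits, 0 windows held the 3-unit heat shock element, against 1.37% of all 2993 summits, and 3 (18.8%) held the form of 2 units, against 17.1%. The median GC content was 36.3% in the member end windows, 42.5% in the member promoter windows and 43.8% over all summits.

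At the promoter summits of members, the 3-unit heat shock element was found in 3 of 12 summit windows (25%): those of hsp-60, hsp-110 and dnj-12. Among all summits the share was 1.37% (41 windows). The middle of the nearest such element lay 5 bp from the dnj-12 summit, 8 bp from that of hsp-110, 83 bp from that of hsp-60 and 103 bp from that of hsp-6. For dnj-13 and hsp-1 it lay 209 bp and 250 bp away. The form of 2 units was in 6 of 12 windows (50%), against 17.1% of all summits. The unfolded protein response core was in 2 of 12 (16.7%), those of hsp-3 and dnj-29, against 2.91%. The GAGA repeat was in 2 of 12 (16.7%), those of hsp-1 and dnj-13, against 7.78%. The E-box and the DAF-16 element were in none of the 12, against 7.68% and 2.71%. The word TGCGTCTC, added after the data were seen, was in 1 of 12 (8.33%), that of hsp-3, against 9.29%. A match describes letters in a window and is not a site of binding.

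**Figure D5:**
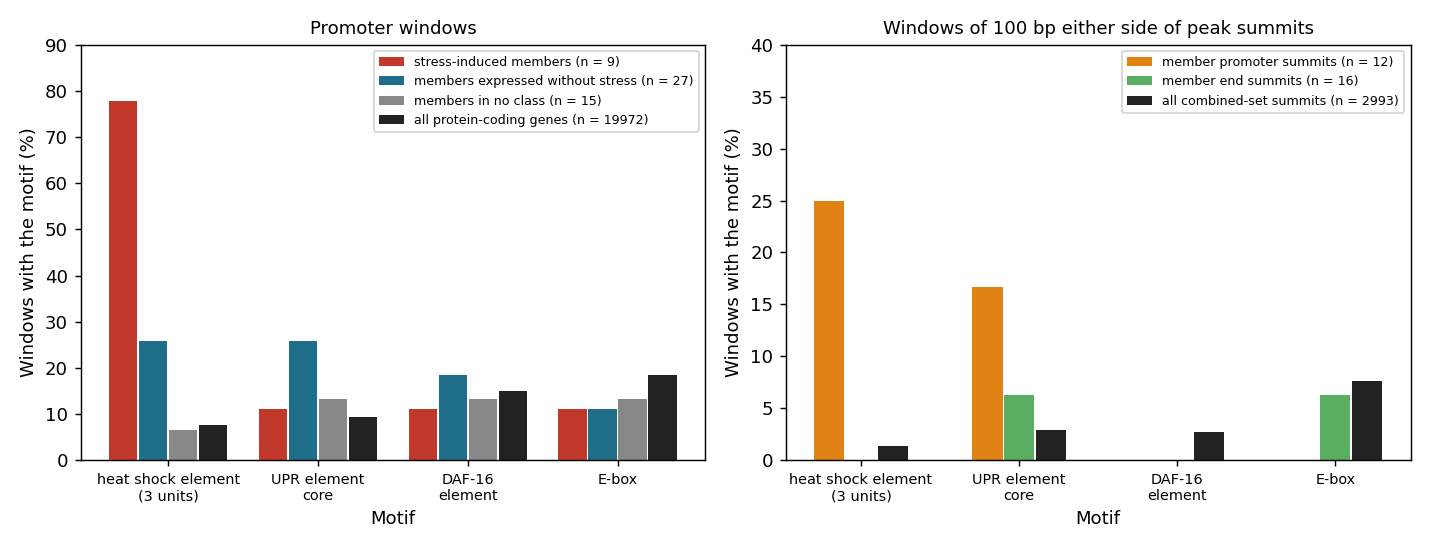
Percent of windows that hold a motif (y axis) for 4 motifs (x axis), in promoter windows by class and in windows of 100 bp either side of summits. The 3-unit heat shock element is in 77.8% of stress-induced promoter windows and 25.9% of those expressed without stress, against 7.68% of all genes.

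In whole promoter windows the stress-induced class had the highest share of the 3-unit element of the 3 classes. Its share with a bound promoter was the lowest, at 0 of 9, too few genes to set against 7.06% of all genes. The 3-unit heat shock element was in 7 of 9 stress-induced windows (77.8%), 7 of 27 windows of members expressed without stress (25.9%) and 1 of 15 in no class (6.67%), against 7.68% of all genes. The 7 stress-induced windows were those of the 6 hsp-16 genes, which share promoters and copies, and hsp-70. In the 4 windows of the inverted copies at most 6.86% of the 50-base words were unique. A missing peak there cannot be told apart from missing reads, also in the counts by element that follow. Replicate 1 alone called hsp-16.2 and hsp-16.41. Of the 15 members with the element, 6 were bound (40%), and of the 36 without it, 5 were bound (13.9%). Over all protein-coding genes the shares were 8.34% with the element and 6.95% without it. The shorter form and the TATA box were in most windows of every class and of all genes (79.9% and 80%). The word TGCGTCTC was in 6 of 9 stress-induced windows, all of hsp-16 genes, against 8.06% of all genes.

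Other genes of protein folding were counted beside the members, from a list of 41 genes. Of these, 17 (41.5%) were bound at the promoter, against 7.06% of all protein-coding genes, and 12 (29.3%) had an end summit, against 4.12%. The CCT chaperonin folds actin and tubulin in the cytosol, and 3 of its 8 subunit genes were bound: cct-8 (991), cct-1 (548) and cct-6 (125). Prefoldin passes clients to that ring, and 3 of its 6 genes were bound: pfd-1 (273), pfd-6 (151) and pfd-3 (113). Of 7 other chaperone genes, 5 were bound: F44E5.4 and F44E5.5, crt-1 (calreticulin, 326), enpl-1 (the reticulum Hsp90, 279) and stc-1 (an Hsp70-related gene, 105). Of 9 co-chaperone genes, 4 were bound: bag-1 (260), unc-23 (164), ahsa-1 (139) and sti-1 (130), which act on Hsp70 or Hsp90. Of 11 regulators, 2 were bound: atfs-1 (138) and atf-6 (119), and hsf-1 was not. Replicate support differed among the bound genes of the list. The cct-6 peak was thresholded in neither replicate alone. Those of pfd-3, pfd-6, stc-1, ahsa-1, sti-1 and atf-6 were thresholded in only 1, and the rest in both. No ranked peak of replicate 2 overlapped that of atf-6. The regulator xbp-1 had an end summit of 565 at 184 bp, with 209 in replicate 1 and 323 in replicate 2, and unc-45, a myosin chaperone gene, had one of 237 at 137 bp.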

How the data were processed

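The ChIP-seq peak lists were deposited on the ce11 assembly, which is WBcel235, and were thresholded on the irreproducible discovery rate (IDR) per the file listings. The sources used here name no aligner or peak caller and give no read counts, so the depth is unknown. Each peak has an integer score and a peak signal, both scores deposited by the authors, and a q-value and an IDR as −log10 deposited by the authors. Thresholded lists hold scores of at least 830. The 6 lists used were the combined set, the conservative set and each replicate's thresholded and ranked lists.

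Summits were placed on Ensembl release 115 genes with Python 3.11.15, pandas 2.3.3, NumPy 2.4.6 and SciPy 1.17.1. The window code was checked on planted summits. Shares of all 19973 protein-coding genes served as background, and no test was made. Genes named are all bound members, all stress-induced members, the 5 highest unbound others, partners in shared promoters and bound genes of the pathway lists. The members, classes, pathway lists and motifs were chosen with earlier results of these data known. The window past the gene end, the 50-base words, the 3-unit element beside binding and the body summits were added after seeing the data. Alternatives changed the peak set, the window, the start, the gene assignment and the class lists.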

Additional observations from a re-analysis of the deposited data

How the results depend on the processing

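Of 11 members bound in the combined set, 6 were left when each summit counted only for its nearest gene. Under the same rule, 5 of 10 members expressed without stress, and 11 of 17 other chaperone and regulator genes were left. The count of stress-induced members bound was 0. It was 1 in the conservative set, 3 with a window of 2000 bp upstream, and 0 to 2 with 1 replicate left out. The 3 calls with the 2000 bp window were hsp-16.1, hsp-16.11 and hsp-16.48, all in the inverted copies. The stress-induced share minus that of members expressed without stress was −37 percentage points. It ranged from −37 to −14.8 with 1 replicate left out. It was −3.7 with the 2000 bp window, −18.5 with nearest genes only and −18.9 with F44E5.4 and F44E5.5 added. With the start of any transcript it was −44.4, outside the range between the replicates. The median percentile of members, among genes with a ranked summit in the window, was 57.9. With 1 replicate left out it was 56.8 to 63, over the 35 members ranked in both replicates. Over every member ranked in the replicate, it was 63 in replicate 1 (39 members) and 55.6 in replicate 2 (38 members). It was 66.7 for a window of 500 bp upstream to 100 bp downstream. Among all genes, with those lacking a ranked summit tied lowest, it was 68.8. The count of stress-induced members with an end summit was 5. It was 2 to 3 with 1 replicate left out (2 without replicate 2, where the share fell below that of members expressed without stress), 3 within 300 bp, 3 away from tRNA, snoRNA and snRNA genes, and 2 without the inverted hsp-16 copies. Every other alternative left its count within 1.5 times, or its share within the spread between the replicates. The cause of these shifts was not tested. No paired analysis was possible because the series has 1 group. Depth is unknown, so a missing summit cannot be given a limit. Peaks shared between genes and the whole-animal source limit what any single gene's call can say.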
